A study of Mus musculus with 8 samples.

Results

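The genes described here are 10 genes of fibroblast growth factor (FGF) signaling in the mouse ventral hippocampus, out of 50686 genes listed in the count table. They comprise 4 receptor genes (*Fgfr1*, *Fgfr2*, *Fgfr3* and *Fgfrl1*), 2 ligand genes (*Fgf1* and *Fgf2*) and 4 genes induced by the pathway, most of them inhibitors (*Spry1*, *Spry2*, *Spry4* and *Etv5*). The set was chosen by pathway membership and from measured values, since lower reads of *Fgfr2* and *Fgfrl1* after corticosterone were known when it was drawn up. For this reason, the differences of the 10 genes between the groups are given as a description, with their error and no p value. All 10 genes had reads in all libraries and passed the filter on low counts, which left 16018 genes tested.

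Messenger RNA was sequenced from ventral hippocampi of 8-week-old male C57BL/6 J mice (C57B6/J in the labels). Of these, 4 were injected with vehicle and 4 with corticosterone at 3 mg/kg, and all were killed 3 h later. Vehicle libraries are numbered 1 to 4 and corticosterone libraries 5 to 8, and the labels name neither a genetic modification nor a pooling of mice. The comparison asks which transcripts differ shortly after a single dose of the stress hormone. The libraries held 17492159 to 19931987 reads on genes. All 7 markers of hippocampal fields (such as *Prox1* of dentate granule cells and *Wfs1* of CA1) passed the filter, with a summed level of 546 to 665 CPM (counts scaled to library size) after vehicle and 508 to 636 CPM after corticosterone. The trend of log2 CPM with GC content had slopes of 0.0595, 0.145, 0.175 and -0.084 per 10 percentage points in vehicle libraries 1 to 4, and of 0.199, -0.183, -0.130 and -0.181 in corticosterone libraries 5 to 8. Corticosterone libraries 6 to 8 thus lay below every vehicle library, and library 5 lay above them all, nearest to vehicle libraries 2 and 3. Values with each library's trend removed are given beside the group differences that they moved most. Reads without a unique alignment made up 0.0699% to 0.1106% of each vehicle library but 0.0420% to 0.0536% of each corticosterone library. This share did not overlap between the groups, and its part in the differences given here was not tested.

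In FGF signaling, a secreted ligand binds a receptor tyrosine kinase together with heparan sulfate on the cell surface, and the activated receptor drives the RAS and MAPK cascade through the adaptor FRS2. The cascade switches on transcription factors of the ETS family such as ETV5 and, with them, inhibitors such as the Sprouty proteins, which dampen the same cascade. In the brain the pathway is known for its part in neural stem cell maintenance, astrocyte identity and myelination. FGFR1 is found in neurons and glia, FGFR3 is a marker of astrocytes, and FGFR2 occurs in astrocytes and cells of the oligodendrocyte lineage. FGFRL1 binds FGF ligands but lacks the intracellular kinase domain of the other receptors.

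The receptor gene with the largest difference was *Fgfrl1* (ENSMUSG00000008090, chromosome 5 of GRCm38 from 108692382 to 108706924). Its normalized counts were 244, 277, 296 and 287 in vehicle libraries 1 to 4 and 206, 131, 141 and 158 in corticosterone libraries 5 to 8. Every corticosterone value lay below every vehicle value, and library 5 was the corticosterone library nearest to the vehicle values. Vehicle mice averaged 276 ± 23.1 normalized counts and corticosterone mice 159 ± 33.1 (SD, n = 4 each). The log2 fold change was -0.79 with a standard error of 0.14. Of all genes tested, 0.368% had a log2 fold change as low as this or lower. The gene rested on 121 to 303 reads per library, for which counting alone gives a coefficient of variation of 5.96% after vehicle and 7.98% after corticosterone. The observed coefficients of variation were 8.35% and 20.8%.

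*Fgfr2* (ENSMUSG00000030849, chromosome 7, annotated from 130162451 to 133123350) codes for a kinase receptor that binds *Fgf1*, *Fgf2* and several other ligands. Its normalized counts were 634, 641, 596 and 638 in vehicle libraries 1 to 4 and 489, 464, 486 and 439 in corticosterone libraries 5 to 8. The groups did not overlap, and library 5 lay close to the other corticosterone libraries, unlike in *Fgfrl1*. Vehicle mice averaged 627 ± 21.1 normalized counts and corticosterone mice 469 ± 23.4 (SD, n = 4 each), with a log2 fold change of -0.42 and a standard error of 0.077. With 428 to 654 reads per library, counting alone gives a coefficient of variation of 3.96% after vehicle and 4.66% after corticosterone. The observed values of 3.36% and 4.98% were close to these, so that the spread of *Fgfr2* between mice was near the counting error. In bulk tissue, fewer cells of a type and less RNA per cell cannot be told apart. In the annotation, 314 bases of *Fgfr2* exons are shared with *Ctbp2* on the same strand, which makes its count less certain. *Ctbp2* had 515 to 649 normalized counts after vehicle and 483 to 599.5 after corticosterone, with overlapping groups.

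The promoters of these lower receptor genes are shown because they differ in base composition although both genes had lower values after corticosterone. They run from 250 bases before to 50 bases after an annotated start in RefSeq on GRCm38.p6, read 5′ to 3′ along the gene, with each CG pair in capitals. The *Fgfrl1* window is chr5:108693979-108694278 on the plus strand and the *Fgfr2* window is chr7:130266759-130267058 on the minus strand.

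Fgfrl1: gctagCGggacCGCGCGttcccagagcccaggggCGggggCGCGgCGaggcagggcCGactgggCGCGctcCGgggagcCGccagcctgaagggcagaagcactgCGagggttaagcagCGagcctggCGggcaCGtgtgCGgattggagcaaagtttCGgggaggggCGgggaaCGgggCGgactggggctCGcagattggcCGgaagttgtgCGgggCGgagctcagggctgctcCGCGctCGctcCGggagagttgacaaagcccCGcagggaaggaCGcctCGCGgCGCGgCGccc

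Fgfr2: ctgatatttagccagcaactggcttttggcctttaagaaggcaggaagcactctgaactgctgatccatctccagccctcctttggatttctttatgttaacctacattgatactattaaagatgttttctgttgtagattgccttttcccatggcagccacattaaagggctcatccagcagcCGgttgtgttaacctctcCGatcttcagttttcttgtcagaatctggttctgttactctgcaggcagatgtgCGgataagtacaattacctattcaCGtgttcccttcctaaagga

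The *Fgfrl1* window holds 37 CG pairs and a GC content of 73.7%, and the *Fgfr2* window holds 4 CG pairs and a GC content of 43.7%. Among all 32851 promoter windows of the table, the median was 7 CG pairs. Of the 10 genes, 7 had at least 1 window in the table, with 9 windows in all, and *Fgfr1*, *Fgf1* and *Spry4* had none. Apart from *Fgfr2*, these windows held 19 to 37 CG pairs. The hexamer of the glucocorticoid response element, AGAACA or its reverse complement TGTTCT, was in 0 of the 9 windows and in 18.97% of all windows. Both hexamers as an inverted repeat spaced by 3 bases were in 3 windows of the table, and none of those belonged to these genes. An absence says only that these letters are not in these windows, and the table gives 1 start for *Fgfr2*, a gene with 27 annotated transcripts.

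The remaining kinase receptor genes had overlapping values. *Fgfr1* (ENSMUSG00000031565, chromosome 8 from 25513654 to 25575718), the most widely expressed receptor of the family in brain, had 2943, 2826, 3068 and 2720 normalized counts in the vehicle libraries. In the corticosterone libraries it had 3218, 2793, 2980 and 2916. The ranges lay on top of each other, with a log2 fold change of 0.043 and a standard error of 0.069 (0.12 with the trend with GC content and length removed, 0.0035 without corticosterone library 5). Its exons overlap Gm16159 on the opposite strand over 164 bases, and Gm16159 had 0 reads in all libraries. *Fgfr3* (ENSMUSG00000054252, chromosome 5 from 33721674 to 33737068) had 2368, 2597, 2579 and 2226 normalized counts after vehicle and 3046, 2058, 2089 and 2188 after corticosterone. Library 5 had the highest *Fgfr3* value of all 8 libraries, and corticosterone libraries 6 to 8 lay below all vehicle libraries. The log2 fold change of *Fgfr3* was -0.058 with a standard error of 0.12. It was -0.21 without corticosterone library 5, -0.00036 without library 6, and 0.036 with each library corrected for its trend with GC content and transcript length. Exons of *Fgfr3* overlap G630022F23Rik on the opposite strand over 998 bases, so its count is less certain, since the strand setting of the counting is not given. That gene had at most 41.5 normalized counts in any library.

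**Figure D1:**
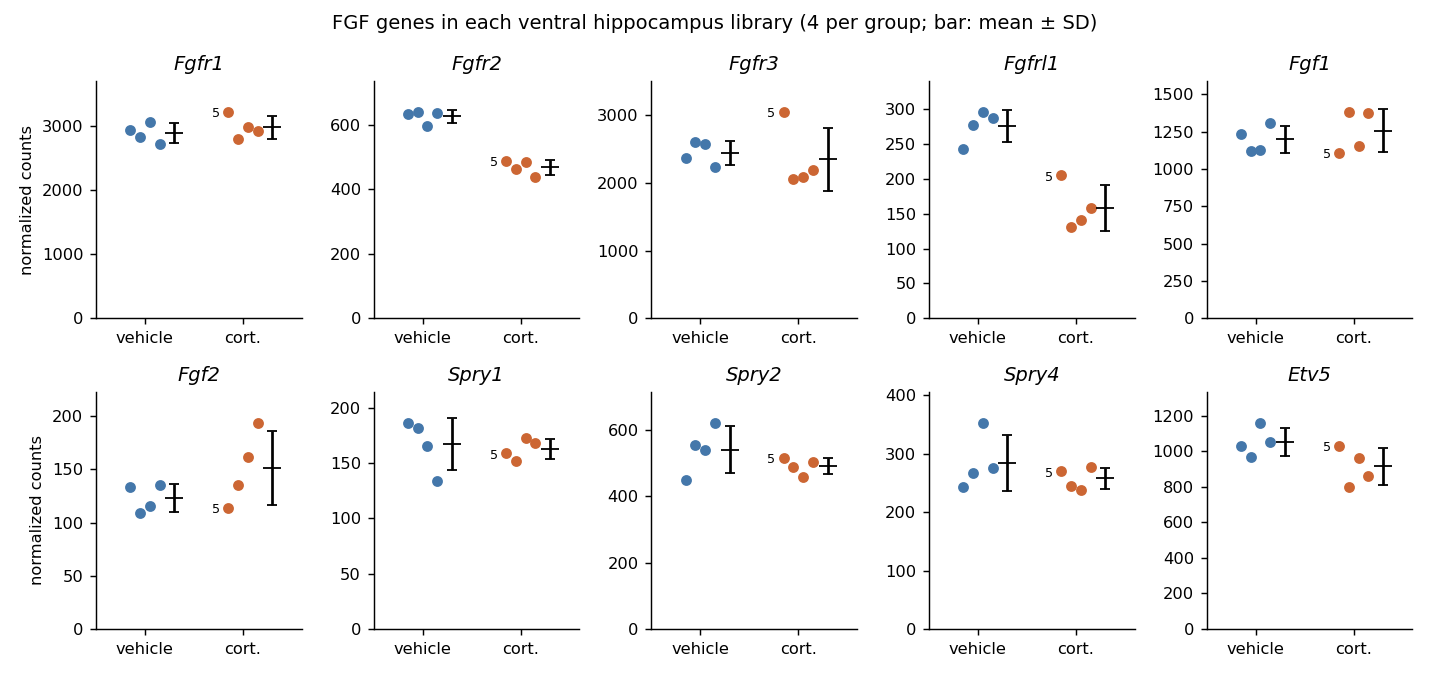
Normalized counts (vertical axis, from 0) of each of the 10 FGF genes in the 4 vehicle and 4 corticosterone libraries, with the mean and SD beside the points and corticosterone library 5 numbered. Only *Fgfr2* and *Fgfrl1* show groups that do not overlap, and library 5 lies at 3046 normalized counts in *Fgfr3*, above the other corticosterone libraries.

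Relative to each other, the kinase receptors had the same order in each vehicle library when the length of all exons was used. With the longest transcript as length, *Fgfr3* was above *Fgfr1* in 1 of 4 vehicle libraries. Per kilobase of exon, as CPM divided by the length of all exons (RPKM), *Fgfr3* had 17.8 ± 1.30 and *Fgfr1* 15.3 ± 0.795 (SD, n = 4 vehicle mice), while *Fgfr2* had 3.17 ± 0.107. Of the summed RPKM of these receptor genes, *Fgfr2* made up 8.90%, 8.72%, 7.92% and 9.53% in vehicle libraries 1 to 4. In corticosterone libraries 5 to 8 its share was 5.93%, 7.31%, 7.34% and 6.60%, below every vehicle library. The share includes the *Fgfr2* values known when the set was drawn up, and its size depends on the exon length used. Library 5 had the lowest share but the highest *Fgfr2* value of the corticosterone libraries, at 2.47 RPKM. Its *Fgfr3* and *Fgfr1* values, 22.2 and 17.0 RPKM, were the highest of all libraries. The sum itself overlapped between the groups, at 33.8 to 38.1 RPKM after vehicle and 32.1 to 41.7 after corticosterone, where the highest value was that of library 5. The ratio of *Fgfr3* to *Fgfr1* in RPKM was 1.11 to 1.27 after vehicle, 1.31 in corticosterone library 5, and 0.967 to 1.04 in libraries 6 to 8. The ratio of the receptor without a kinase, *Fgfrl1*, to *Fgfr2* was 1.43 to 1.85 after vehicle and 1.05 to 1.56 after corticosterone, with overlapping groups. With the longest transcript as length, *Fgfrl1* was above *Fgfr2* in 0 of 4 vehicle libraries. The fourth kinase receptor gene, *Fgfr4*, which is no member of the set, had 7 reads over all 8 libraries.

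Neither ligand gene had groups that did not overlap. *Fgf1* (ENSMUSG00000036585, chromosome 18 from 38838673 to 38929472) codes for acidic FGF, which can bind all FGF receptors. It had 1237, 1121, 1126 and 1307 normalized counts in vehicle libraries and 1108, 1382, 1155 and 1377 in corticosterone libraries. These values interleave, with a log2 fold change of 0.068 and a standard error of 0.090 (0.021 with the trend removed, 0.018 without corticosterone library 8 and 0.12 without library 5). *Fgf2* (ENSMUSG00000037225, chromosome 3 from 37348346 to 37410108) codes for basic FGF, a mitogen of neural stem cells made by astrocytes in the adult brain. Its normalized counts were 134, 109, 115 and 135 after vehicle and 114, 136, 162 and 194 after corticosterone. In 3 corticosterone libraries the value was above every vehicle value, and library 5 lay within the vehicle range. Library 6 was only just above, at 135.6 against 135.2 normalized counts in vehicle library 4, and had fewer raw reads (125 against 137). The log2 fold change was 0.30 with a standard error of 0.16, the largest positive value of the 10 genes. It was 0.15 without corticosterone library 8, 0.41 without library 5 and 0.19 with the trend removed. *Fgf2* was also the gene with the fewest reads of the set in the vehicle group, with 111 to 137 per library, and its exons overlap *Nudt6* on the opposite strand over 640 bases. *Nudt6* had 44.4 to 68.8 normalized counts after vehicle and 42.9 to 63.3 after corticosterone.

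Per length, *Fgf1* was at 11.4 ± 0.867 RPKM and *Fgf2* at 0.949 ± 0.102 RPKM (SD, n = 4 vehicle mice). The ratio of the former to the latter was 11.5 to 12.8 in the vehicle libraries, 12.1 and 12.7 in corticosterone libraries 5 and 6, and 8.86 and 8.82 in libraries 7 and 8. None of the other 16 secreted ligand genes reached the lowest vehicle value of *Fgf1*. The highest of them was *Fgf10* at 3.23 ± 0.760 RPKM, followed by *Fgf9* at 2.31 ± 0.145. Of these 16, 10 did not pass the filter on low counts, and *Fgf8* and *Fgf21* had 0 reads in all libraries. The intracellular FGF genes, whose products do not act through the receptors but bind sodium channels, were led by *Fgf13* at 55.5 ± 2.13 RPKM, and 3 of the 4 lay above every vehicle value of *Fgf1*. The exception was *Fgf14*, at 8.05 ± 0.706 RPKM, below every vehicle value of *Fgf1*.

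None of the feedback genes had groups that did not overlap. *Etv5* (ENSMUSG00000013089, chromosome 16 from 22381309 to 22439719), an ETS transcription factor induced by FGF signaling, had 1030, 971, 1162 and 1051 normalized counts after vehicle. After corticosterone it had 1032, 802, 963 and 864. Libraries 6 to 8 lay below all vehicle libraries and library 5 lay within the vehicle range, so the groups overlapped. The log2 fold change was -0.20 with a standard error of 0.091. It was -0.27 without corticosterone library 5 and -0.14 without library 6. *Spry2* (ENSMUSG00000022114, chromosome 14 from 105891947 to 105896819), an inhibitor of the RAS and MAPK cascade, had 450 to 623 normalized counts after vehicle and 458 to 517 after corticosterone. *Spry4* (ENSMUSG00000024427, chromosome 18 from 38586247 to 38601415), a related inhibitor, had 243 to 353 and 239 to 277. *Spry1* (ENSMUSG00000037211, chromosome 3 from 37639947 to 37644598), also an inhibitor of this cascade, had 134 to 187 and 152 to 172. The corticosterone values of *Spry1* and *Spry2* lay inside their vehicle ranges, and those of *Spry4* went only slightly below it. Exons of *Spry1* overlap Gm42922 on the opposite strand over 710 bases, which makes its count less certain, and Gm42922 had at most 13.7 normalized counts in any library.

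The log2 fold changes of the Sprouty genes were -0.036 for *Spry1* (standard error 0.13), -0.14 for *Spry2* (0.10) and -0.14 for *Spry4* (0.12). Single vehicle libraries moved them. The value of *Spry4* was -0.024 without vehicle library 3 and -0.21 without vehicle library 1, and that of *Spry2* was -0.069 without vehicle library 4, -0.22 without vehicle library 1 and -0.20 with the trend removed. The value of *Spry1* was 0.017 without vehicle library 1 and -0.13 without vehicle library 4, and it was 0.075 with the trend with GC content and length removed. In all 3 Sprouty genes the spread was wider after vehicle than after corticosterone, with coefficients of variation of 13.1% to 16.8% against 5.09% to 7.21%. In *Fgfr3*, *Fgfrl1* and *Fgf2* the spread was wider after corticosterone, at 20.1% to 22.8% against 7.28% to 10.7% after vehicle.

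**Figure D2:**
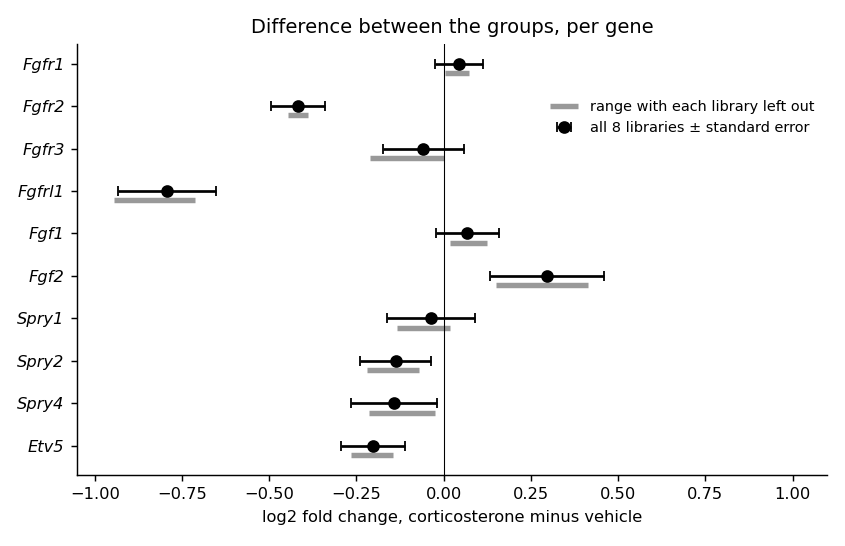
Log2 fold change between corticosterone and vehicle (horizontal axis) for each gene with its standard error from edgeR (black), and the range of the value with each of the 8 libraries left out in turn (grey). *Fgfrl1* stays between -0.94 and -0.71 and *Fgfr2* between -0.44 and -0.39, while *Spry1* falls on both sides of 0.

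Over the whole set, 7 of 10 genes had a lower value after corticosterone, against 49.3% of all genes tested, and the median log2 fold change was -0.098 against 0.0036 over all genes. The groups did not overlap, with corticosterone lower, in 2 of the 10 genes, and this was so in 1.68% of all genes tested. They did not overlap with corticosterone higher in 0 of the 10 genes, against 1.99% of all genes. With Benjamini-Hochberg adjustment over all genes, edgeR's quasi-likelihood test called 0 of the 10 genes at an adjusted p value of 0.05, against 0.00624% of all genes. The count was also 0 by limma-voom, against 0.00624% of all genes. At an unadjusted p value under 0.05, 3 of the 10 were lower, against 4.52% of all genes. DESeq2 called 2 of the 10, *Fgfrl1* and *Fgfr2*, against 0.374% of all genes. The same 2 genes passed in edgeR with no filter on low counts (0.287% of all genes), with the trend with GC content and length removed (0.119%), and without corticosterone library 5 (10.2%). Since this comparison was known when the set was drawn up, these counts only describe it.

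Library 5 differed from the other corticosterone libraries in several of these genes. With each gene centered on its mean over the 8 libraries, 5 of the 10 genes lay above their mean in library 5, against 2 to 4 genes in libraries 6 to 8 and 5 to 8 genes in the vehicle libraries. Without library 5, the log2 fold change of *Fgfrl1* was -0.94 and that of *Etv5* was -0.27. The transcripts of *Fgfrl1*, *Spry1*, *Fgfr3* and *Fgfr1* are rich in GC, at 57.75%, 56.7%, 56.4% and 55.4% in their longest transcript, against a median of 49.7% over the 15983 tested genes with a value. *Fgf2* was the poorest in GC, at 42.2%. With the trend with GC content and length removed, the log2 fold change of *Fgfrl1* was -0.68 and that of *Fgfr2*, whose GC content of 50.2% is near the median, was -0.43.

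In the vehicle libraries, the levels per length ran in the order *Fgfr3*, *Fgfr1*, *Spry2*, *Etv5*, *Fgf1*, *Fgfrl1*, *Fgfr2*, *Spry4*, *Spry1* and *Fgf2*. The upper 5 genes lay between 11.4 and 17.8 RPKM on average. *Spry2* had 13.6 ± 1.78 RPKM and *Etv5* 13.4 ± 1.02 (SD, n = 4). The lowest vehicle value of *Fgfr3* was only just above the highest of *Fgfr1*. From *Fgfr1* down to *Etv5*, neighbors did not differ beyond their spread, since *Fgfr1* was above *Spry2* in 3 of 4 vehicle libraries and *Spry2* above *Etv5* in 2 of 4. *Etv5* was above *Fgf1* in 4 of 4 vehicle libraries, although their ranges overlapped. A gap followed, with *Fgf1* 2.21 times as high as *Fgfrl1*, at 5.18 ± 0.433 RPKM. *Fgfrl1* in turn was 1.64 times as high as *Fgfr2*, without overlap. *Fgfr2*, *Spry4* (3.12 ± 0.526 RPKM) and *Spry1* (3.00 ± 0.426 RPKM) overlapped each other, and *Fgf2* was lowest, below all values of *Spry1*. With 4 mice, an exact paired test of neighbors cannot give a p value below 0.125 (two-sided), so none was made. After corticosterone, *Fgfrl1* stood at 2.98 ± 0.620 RPKM and *Fgfr2* at 2.37 ± 0.118 (SD, n = 4), next to *Spry4* at 2.83 ± 0.204 and *Spry1* at 2.93 ± 0.167. The order rests on the exon length used. With the longest transcript in place of all exons, *Fgfr2* had 7.39 RPKM and *Fgfrl1* 6.19, which turned their order. The order by mean also turned for *Spry2* and *Etv5*, *Etv5* and *Fgf1*, and *Spry4* and *Spry1*.

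**Figure D3:**
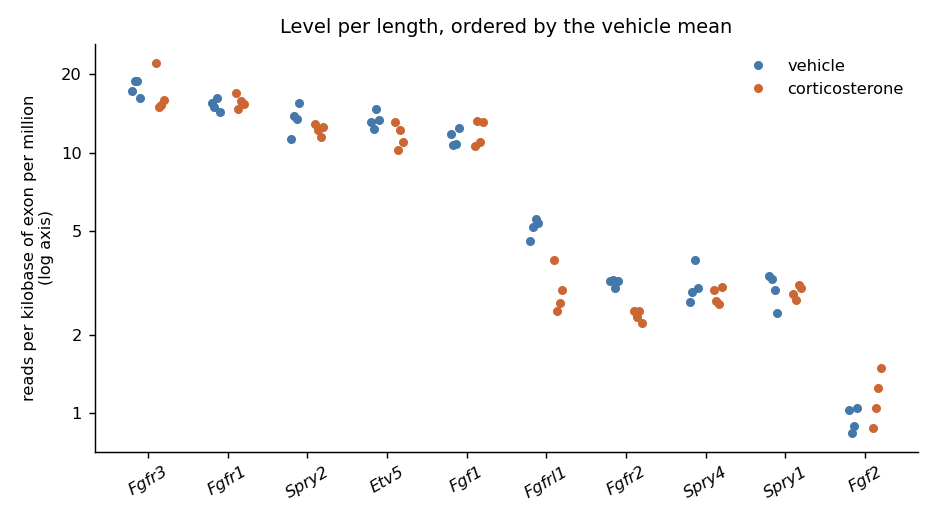
Level of each gene in each library in RPKM (logarithmic vertical axis), ordered by the vehicle mean, with vehicle and corticosterone libraries in separate colors. The points of 5 genes lie above 10 RPKM, *Fgf2* lies near 1, and *Fgfrl1* moves from above *Spry4* to the same range after corticosterone.

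The other genes of the pathway were taken from lists of 99 genes, of which 86 passed the filter. At an adjusted p value of 0.05, 0 of them passed by edgeR and limma-voom (0.00624% of all genes in each) and 0 by DESeq2 (0.374%). At an unadjusted p value under 0.05, 8 were lower and 1 was higher, against 4.52% and 4.51% of all genes. Of the 86 genes, 45 had a lower value after corticosterone and the median log2 fold change was -0.0033. The groups did not overlap in 3 of them, *Fgf16*, *Gab1* and *Ccnd1*, each lower after corticosterone, a share of 3.49% against 1.68% of all genes, and in 0 with corticosterone higher, against 1.99%. Without corticosterone library 5, edgeR called 10 of the 86 genes, 2 higher and 8 lower, a share of 11.6% against 10.2% of all genes.

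Among the other secreted ligands, 6 of 16 were tested, with a median log2 fold change of 0.036. *Fgf16* had 20.6 ± 3.10 normalized counts after vehicle and 12.8 ± 3.16 after corticosterone (SD, n = 4 each), a log2 fold change of -0.69 (adjusted p = 0.5325 from edgeR). It rested on 10 to 25 reads per library. *Fgf9*, a ligand made by neurons, had a log2 fold change of -0.15, *Fgf5* of 0.20 and *Fgf22*, a ligand of synapse formation, of 0.40. Without corticosterone library 5, the value of *Fgf22* was -0.019 and that of *Fgf9* -0.073. That of *Fgf5* was 0.075 without library 6 and 0.33 without library 5. With the trend with GC content and length removed, *Fgf9* was at -0.26. Of the 4 intracellular FGF genes, *Fgf12* had the largest difference, from 2009 ± 422 to 2446 ± 375 normalized counts. Its log2 fold change was 0.28 (adjusted p = 0.5451 from edgeR), and 0.43 without vehicle library 4. It was 0.20 without vehicle library 1 and also 0.20 with the trend removed. That of *Fgf14* was 0.17, 0.11 without corticosterone library 6, 0.26 without library 5, and 0.039 with the trend removed. *Fgf11* was at -0.066, with -0.14 without vehicle library 1 and -0.0069 without vehicle library 4, and *Fgf13* was at -0.020, with 0.034 without corticosterone library 5. With the trend removed, *Fgf11* was at -0.032 and *Fgf13* at -0.085.

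Of the 11 genes of receptors, co-receptors and binding partners, 8 were tested, with a median log2 fold change of 0.048. *Flrt1*, whose product binds FGF receptors, had 415 ± 28.1 normalized counts after vehicle and 337 ± 64.7 after corticosterone, a log2 fold change of -0.30 (adjusted p = 0.5325 from edgeR). The related *Flrt3* had a log2 fold change of 0.19 in the other direction, *Cdh2* one of 0.081, and *Kl*, the klotho gene, one of -0.042. With each library left out, *Flrt3* ranged from 0.086 (without corticosterone library 8) to 0.30 (without library 5) and *Cdh2* from 0.034 to 0.14 (without the same libraries). *Kl* changed sign, from -0.075 without vehicle library 4 to 0.016 without vehicle library 1. Heparan sulfate genes, which supply the sugar chains that hold ligand and receptor together, had all 30 members tested and a median of -0.0033. *Sdc4*, a syndecan core protein, went from 1804 ± 157 to 2162 ± 99.7 normalized counts on average, a log2 fold change of 0.26 (adjusted p = 0.407 from edgeR). The syndecan *Sdc3* and the glypican *Gpc1* had lower values, with log2 fold changes of -0.22 and -0.32 (adjusted p = 0.5325 and 0.5088). *Extl2*, which acts on the chain at its start, had one of 0.17. With the trend with GC content and length removed, several of these values were smaller, at -0.073 for *Sdc3*, -0.16 for *Gpc1*, 0.10 for *Extl2* and 0.092 for *Flrt3*, while *Sdc4* was at 0.23, *Flrt1* at -0.25 and *Kl* at -0.084.

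In the 20 genes of adaptors and the MAPK cascade, the median was -0.012. *Gab1*, a docking protein downstream of the receptors, had 435 ± 40.0 normalized counts after vehicle and 353 ± 23.3 after corticosterone, a log2 fold change of -0.30 (adjusted p = 0.4497 from edgeR). The kinase gene *Map2k2* had a log2 fold change of -0.32 (adjusted p = 0.5451), the exchange factor gene *Sos1* one of 0.17, and *Braf* one of 0.10, which was 0.034 without vehicle library 2 and 0.16 without vehicle library 4. Of the 18 other feedback and target genes, 11 had a lower value, with a median of -0.084. *Ccnd1*, the cyclin D1 gene, averaged 796 ± 39.0 after vehicle and 637 ± 75.8 after corticosterone in normalized counts, a log2 fold change of -0.32 (adjusted p = 0.407 from edgeR). The phosphatase gene *Dusp7* had one of -0.24 (adjusted p = 0.5403), *Etv1* one of 0.15 and *Lrig1* one of 0.13, which was 0.070 without corticosterone library 5. With the trend removed, *Gab1* and *Ccnd1* were at -0.28 and -0.32. The others moved by more, to -0.12 for *Map2k2*, 0.053 for *Sos1*, -0.0046 for *Braf*, -0.11 for *Dusp7*, 0.012 for *Etv1* and 0.21 for *Lrig1*.

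**Figure D4:**
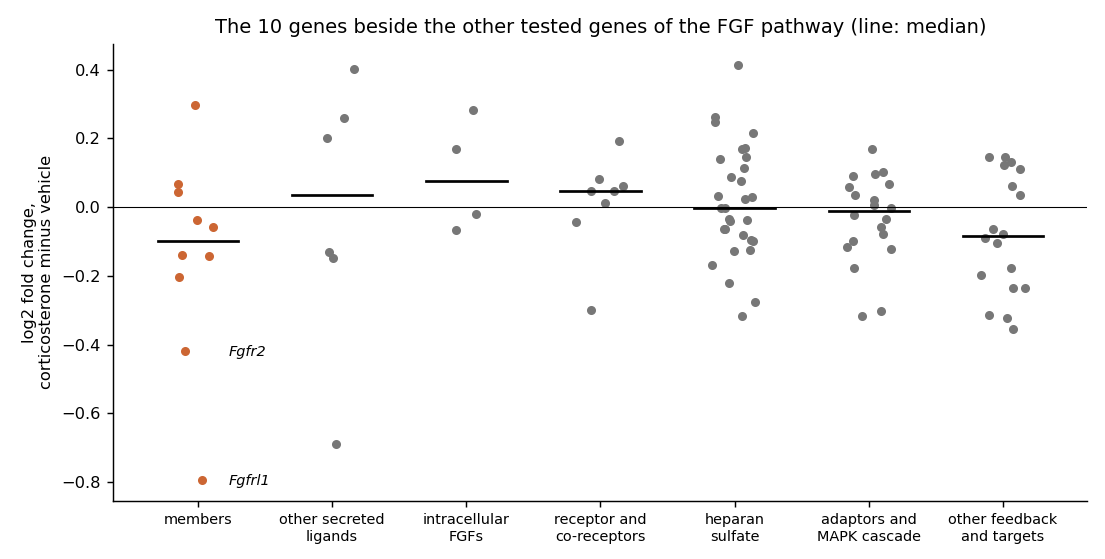
Log2 fold change between corticosterone and vehicle (vertical axis) of the 10 FGF genes and of the other tested genes of the pathway, one point per gene, with the median of each list as a line. *Fgfrl1* at -0.79 is the lowest point, followed by *Fgf16* at -0.69, and the medians of the other lists lie between -0.084 and 0.075.

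Markers of cell types were set beside the lower receptor genes. Astrocyte markers (10 of 10 tested) summed to 4668 to 5435 CPM after vehicle and 4834 to 5170 after corticosterone, with 3 genes higher and 7 lower in value. Oligodendrocyte markers (10 of 10 tested) had a lower value in all 10 genes, with sums of 3410 to 6015 CPM after vehicle and 3342 to 4116 after corticosterone, which overlap, and the highest sum in vehicle library 1. Markers of oligodendrocyte precursors (8 of 8 tested) summed to 241 to 257 CPM and 242 to 271 CPM. Microglia markers (10 of 10 tested) had a lower value in 9 genes, with sums of 441 to 454.5 CPM and 355 to 447 CPM. Their highest corticosterone sum was that of library 5, and corticosterone libraries 6 to 8 lay below every vehicle library. Endothelial markers (8 of 8 tested) had a lower value in all 8 genes, and their sums did not overlap, at 132.5 to 141 CPM after vehicle and 112 to 125 CPM after corticosterone. Mural cell and fibroblast markers (8 of 8 tested) summed to 189 to 262 CPM and 219.5 to 329 CPM, with 7 genes higher in value. Neuron markers (8 of 8 tested) summed to 10260 to 12190 CPM and 10360 to 11120 CPM.

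Choroid plexus markers (4 of 8 tested) summed to 5 to 49.7 CPM after vehicle and 15.5 to 54.9 after corticosterone, led by *Ttr* at 3.35 to 43.4 and 11.2 to 44.2 CPM, with all 4 tested genes higher in value and a median log2 fold change of 1.1. Ependymal markers (6 of 6 tested) summed to 10.5 to 14.7 CPM and 9.57 to 21.4 CPM, with all 6 genes higher in value and a median of 0.39. The sums of both lists overlapped between the groups. No marker of these lists had 0 reads in all 8 libraries, and by edgeR 0 of the marker genes passed an adjusted p value of 0.05, against 0.00624% of all genes. The part of these cell types in the lower values of *Fgfr2* and *Fgfrl1* was not tested.

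**Figure D5:**
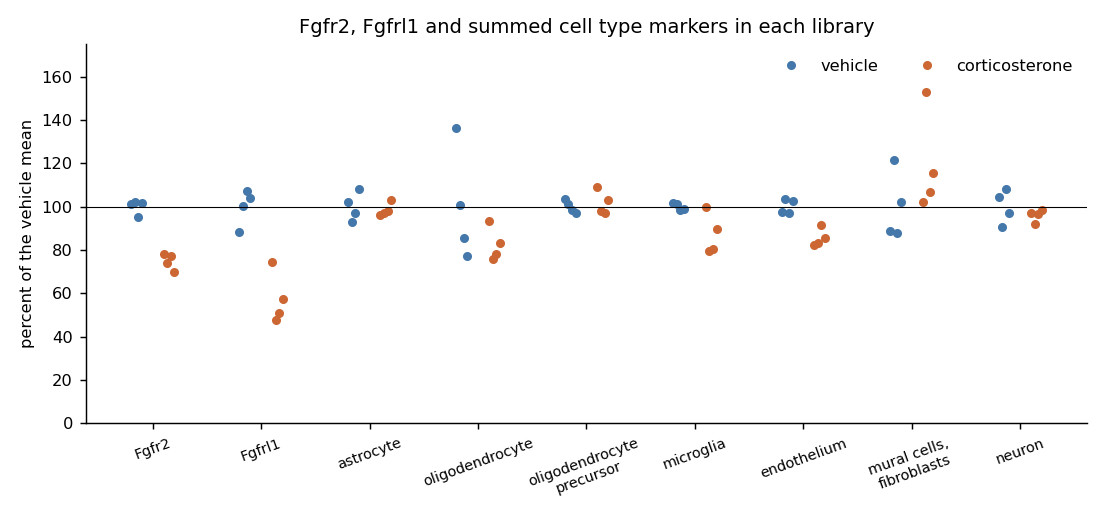
Normalized counts of *Fgfr2* and *Fgfrl1* and summed CPM of 7 lists of cell type markers in each library, each as a percent of its vehicle mean (vertical axis, from 0). Besides both receptor genes, the endothelial markers show groups that do not overlap, and the sum of the astrocyte markers overlaps between the groups.

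The genes whose profile over the 8 libraries lay closest to each lower receptor gene were sought among the 16008 other tested genes, by the root mean square difference of centered log2 CPM. For *Fgfr2*, whose own root mean square deviation was 0.215, these were *Mtmr11* (a difference of 0.0651), *S100a16* (0.082) and *Fmnl3* (0.085). Their log2 fold changes were -0.32, -0.39 and -0.37. For *Fgfrl1*, whose own deviation was 0.445, these were *Cx3cr1* (0.111), the fractalkine receptor of microglia and a member of the microglia list, *Tgfb1* (0.122), a cytokine gene, and Gm3764 (0.15). *Cx3cr1* had a mean of 1159 normalized counts after vehicle and 681 after corticosterone, a log2 fold change of -0.76, and *Tgfb1* one of -0.69. These profiles share the libraries and the difference between the groups, so the likeness is a description.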

How the data were processed

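RNA-seq was performed on the ventral hippocampus of 8 mice. Per the labels and the methods of the study, the authors aligned paired reads of stranded libraries to mm10 (GSnap), summed them over genes (HTSeq-count) and deposited raw counts without normalization. The annotation release and the strand setting are not given in the sources used here. All 8 columns were mapped through the sample titles. The summary rows of HTSeq (13.7% to 15.4% of each column) were left out of library sizes and tests. Symbols, coordinates and exon lengths came from GENCODE M21 (GRCm38), which held 50462 of the 50686 identifiers.

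Counts were scaled with TMM in edgeR 4.0.16 (R 4.3.3), and "normalized counts" are counts at the mean effective library size. Genes kept by filterByExpr were compared with the quasi-likelihood test, and Benjamini-Hochberg adjusted p values were read at 0.05. Standard errors came from the log2 fold change and the F statistic. Log2 CPM used a prior count of 2. DESeq2 1.42.0 and limma-voom (limma 3.58.1) were alternatives, as were other normalizations, other filters, removal of the GC content and length trend (splines with 5 degrees of freedom) and each library left out. Tested on simulated data (15843 genes), edgeR recovered 97% of genes with a log2 change of 1 and 55% of genes with one of 0.5. False calls made up 6.17%. The changes were set only in genes with many reads, and no differences between libraries such as the trend with GC content were simulated. These shares therefore do not say how many such genes are found in the real libraries.

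The 10 genes and the pathway and marker lists were chosen with earlier results of these data known. Named are the 10 genes, of each pathway list the called genes and the 2 with the smallest p value in each direction, and for *Fgfr2* and *Fgfrl1* the 3 genes of closest profile. *Fgf8*, *Fgf10*, *Fgf21* and *Fgfr4* were named after their values were seen. P values measure the spread between mice of this one experiment.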

Additional observations from a re-analysis of the deposited data

Results flagged for a closer look

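In 48 sets of 4 values (the 10 FGF genes, 4 measures of the libraries and 10 marker lists, each in both groups), a single library lay far from the rest in 5. A nominal rate of 1 in 20 would give 2.4 such sets, but the sets share the same libraries and are not independent. *Fgfr2* had 596 normalized counts in vehicle library 3 against 634 to 641 in the other vehicle libraries. *Fgfr3* had 3046 normalized counts in corticosterone library 5 against 2058 to 2188. The share of ambiguous reads was 1.404% in vehicle library 4 against 1.64% to 1.67%, and 1.483% in corticosterone library 5 against 1.25% to 1.28%. The slope of log2 CPM on GC content, per 10 percentage points, was 0.199 in corticosterone library 5 against -0.183 to -0.130 in libraries 6 to 8, and it was 0.0595, 0.145, 0.175 and -0.084 in vehicle libraries 1 to 4. Libraries 6 to 8 lay below every vehicle library.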

How the results depend on the processing

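No paired analysis was possible because no replicate number occurs in both groups. The number of genes called by edgeR was 1 of 16018. It was 63 with DESeq2, 79 with no filter on low counts, 19 with the GC content and length trend removed, and 0 with at least 10 counts in every library (1330 at an unadjusted p value under 0.05). With each library left out it ranged from 0 to 1651, with 1651 without corticosterone library 5, 19 without vehicle library 1 and 0 in the other 6 fits (760 to 2480 at an unadjusted p value under 0.05). Of the 10 FGF genes, 2 (*Fgfrl1* and *Fgfr2*) passed with DESeq2, with no filter and with the trend removed, and 0 to 2 with each library left out, 2 only without corticosterone library 5. Of the other pathway genes, 0 to 10 passed with each library left out, 10 only without corticosterone library 5. Of the 9 neighboring pairs in the order of levels, 5 kept their order with the longest transcript as length, 6 in the corticosterone libraries, and 6 to 8 with each vehicle library left out. *Braf* reversed to -0.0046 with the trend removed, and *Fgfr3* and *Spry1* also changed sign, to 0.036 and 0.075. With each library left out, *Fgf22* ranged from -0.019 to 0.65, *Fgf13* from -0.065 to 0.034 and *Kl* from -0.075 to 0.016 on the log2 scale. *Spry1* ranged from -0.13 to 0.017. The cause was not tested. *Fgfrl1* and *Fgfr2* kept their direction in all fits, at -0.94 to -0.68 and -0.44 to -0.39. *Fgf2*, *Spry1* and *Fgfrl1* had at most 303 reads per library, which limits their precision.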
